A study of Mus musculus with 9 samples.

Results

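The levels of 10 genes that govern the passage of a cell through G1 were followed in mammary tumours of BlgCre-NeuKI mice: the D cyclins Ccnd1, Ccnd2 and Ccnd3, their kinases Cdk4 and Cdk6, the inhibitors Cdkn1a, Cdkn2a and Cdkn2b, the tumour suppressor Rb1, and the transcription factor Myc. They were chosen by symbol, with earlier results of these data known, and all 10 were found among the 18484 genes listed for each tumour. RNA sequencing of 9 tumours, with 1 library each, gave the values. In these mice an activated variant of rat Neu (NeuNT) sits in the Erbb2 locus behind a loxP-flanked cassette. The mice of all 9 tumours also carry a Cre under the beta-lactoglobulin promoter, which acts mainly in luminal oestrogen receptor-negative cells of the mammary gland and can excise the cassette. Excision was not shown in the ASQC (adenosquamous) tumour MS1349.1. High amplification was the label of 5 adenocarcinomas of no special type, AC(NST), of which virgin mice gave MS1213.1, MS1163.1 and MS1163.2 and parous mice gave MS1218.2 and MS1155.3. The group called not/low-amplified here held 3 tumours of parous mice, namely the metaplastic adenosquamous carcinomas (ASQC) MS1210.1 and MS1349.1 and the AC(NST) MS1166.1. The remaining tumour, MS1156.1, was a mammary sarcoma of a parous mouse with a non/low amplification label. Values below follow this order of tumours. Amplification refers to the Erbb2/Neu locus, and the study grouped the tumours by quantitative PCR on tumour DNA. Its other assays did not always give the same status. Digital droplet PCR scored MS1213.1 and MS1218.2 low, and copy number from exome sequencing showed amplification in MS1213.1 but not in MS1218.2. The ages of the mice were not in the labels. A single mouse number, MS1163, is shared by 2 of the virgin tumours, every virgin tumour was high-amplified and both ASQC were not/low-amplified, so that amplification, parity and histotype cannot be told apart, and p-values measure the spread between these tumours.

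D cyclins bind Cdk4 or Cdk6 and the active pair phosphorylates the Rb1 protein, which then releases E2F factors that turn on genes of DNA synthesis. Cdkn2a and Cdkn2b encode INK4 inhibitors that bind Cdk4 and Cdk6, whereas Cdkn1a encodes p21, a broader inhibitor and a target of p53. From its upstream start, Cdkn2a also encodes p19Arf, which stabilizes p53 by binding Mdm2. Myc pairs with Max on E-box sequences, and raises genes of ribosome synthesis and growth. In the mouse mammary gland, Ccnd1 and Cdk4 are known to be required for tumours driven by ErbB2.

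The promoter letters that bear on these results are those of Cdkn2a, whose 2 starts are summed in a single row of counts, of Cdk4 and the Myc-responsive gene Hspd1, which hold E-boxes, and of E2f2, which holds an E2F site. Each line gives 250 bases before to 50 bases after a start from RefSeq (GRCm38.p6), 5′ to 3′ on the gene's strand, with the motif in capitals. The motifs searched, on both strands, were the E-box CACGTG, found in 7.15% of 32851 promoters of this length, and the E2F forms TTTCCCGC, TTTCGCGC, TTTGCCGC and TTTGGCGC, found in 2.26%. The first Cdkn2a window holds 1 E2F site and the second none, Cdk4 holds 4 E-boxes, Hspd1 holds 1 E-box and E2f2 holds 1 E2F site. For Hspd1 and E2f2 the upstream of 2 listed starts is shown, and the window of the other start holds neither motif. The window of Pa2g4, another Myc-responsive gene named below, also holds neither. No window is given here for Rrs1, the remaining Myc-responsive gene called below. Of the 10 genes 6 matched an entry, the others being Ccnd1, Ccnd2, Rb1 and Myc. A match is a description of letters and not a bound site.
Cdkn2a upstream start (p19Arf), chr4:89294570-89294869, minus strand: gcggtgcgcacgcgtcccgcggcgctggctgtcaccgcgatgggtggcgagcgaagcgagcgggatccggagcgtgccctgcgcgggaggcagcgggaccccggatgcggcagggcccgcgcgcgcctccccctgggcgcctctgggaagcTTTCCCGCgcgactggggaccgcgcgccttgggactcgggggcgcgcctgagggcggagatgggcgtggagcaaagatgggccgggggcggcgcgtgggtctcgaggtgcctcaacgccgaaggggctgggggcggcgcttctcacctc
Cdkn2a downstream start (p16Ink4a), chr4:89282143-89282442, minus strand: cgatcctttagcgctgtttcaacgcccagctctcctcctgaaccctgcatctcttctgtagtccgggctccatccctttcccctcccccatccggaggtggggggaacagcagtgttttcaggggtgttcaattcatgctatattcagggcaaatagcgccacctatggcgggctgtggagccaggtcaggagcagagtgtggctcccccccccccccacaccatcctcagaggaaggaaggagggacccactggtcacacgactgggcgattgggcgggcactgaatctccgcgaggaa
Cdk4, chr10:127063285-127063584, plus strand: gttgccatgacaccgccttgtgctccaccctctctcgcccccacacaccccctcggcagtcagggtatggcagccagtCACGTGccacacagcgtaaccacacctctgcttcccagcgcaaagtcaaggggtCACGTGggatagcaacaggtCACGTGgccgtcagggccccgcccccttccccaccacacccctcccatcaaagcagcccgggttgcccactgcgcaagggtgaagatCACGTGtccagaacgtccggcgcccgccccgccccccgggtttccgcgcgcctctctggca
Hspd1, chr1:55088194-55088493, minus strand: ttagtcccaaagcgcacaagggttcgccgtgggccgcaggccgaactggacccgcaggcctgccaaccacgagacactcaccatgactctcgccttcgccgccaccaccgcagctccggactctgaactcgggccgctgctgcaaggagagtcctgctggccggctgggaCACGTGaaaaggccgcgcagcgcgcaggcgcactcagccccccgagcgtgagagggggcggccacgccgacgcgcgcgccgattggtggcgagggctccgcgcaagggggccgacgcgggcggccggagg
E2f2, chr4:136172024-136172323, plus strand: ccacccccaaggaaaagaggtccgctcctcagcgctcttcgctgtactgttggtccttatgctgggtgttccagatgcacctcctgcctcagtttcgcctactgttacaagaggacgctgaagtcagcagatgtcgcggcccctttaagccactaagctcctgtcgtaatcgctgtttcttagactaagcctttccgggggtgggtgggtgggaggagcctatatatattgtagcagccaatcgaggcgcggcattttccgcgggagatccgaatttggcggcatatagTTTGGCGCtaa

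Libraries held 12501225 to 23912429 counted reads, and the lowest count of any of the 10 genes in any tumour was 25, for Cdkn2a in MS1155.3. Values are normalized counts, which are reads divided by 1 size factor per tumour, and compare a gene between tumours but not genes with each other. As a check of the labels, Erbb2 stood at 51764, 5284, 6689, 15261 and 105019 in the high-amplified tumours with no overlap with the 2783, 1943 and 1532 of the not/low-amplified group, and the sarcoma held 1177. In the ASQC, the summed level of 12 squamous and keratinocyte markers was 81832 and 13904, against 424 to 6847 in the 6 AC(NST). In the sarcoma all 8 epithelial markers lay below every epithelial tumour (summed level 484 against 38306 to 156618) and 6 of 10 fibroblast and mesenchymal markers lay above, and its summed level of 6 skeletal muscle markers was 48767, against 3425 in MS1163.2 and 12.7 to 233 in the others. MS1218.2, which the study named as its exception in tumour purity, was highest of the 8 epithelial tumours for 8 of 10 fibroblast, 5 of 11 leukocyte and 7 of 7 endothelial markers. In such bulk samples fewer cells of a type and less RNA per cell cannot be told apart.

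By amplification label, none of the 10 genes passed the threshold of edgeR's quasi-likelihood test (adjusted p under 0.05 and a change of more than 2-fold), with 0.921% of the 14007 tested genes called. At an unadjusted p under 0.05, 2 of the 10 genes passed, Myc and Cdk6, which is no more than the 22.8% of all genes that did. DESeq2 called 1 of the 10, Myc, where it called 10.6% of all genes. The groups did not overlap for 1 of the 10, again Myc, against 15.6% of all genes. The fold changes of 8 of the 10 lay below 0, that is, lower in high-amplified tumours, with a median log2 fold change of -0.66 against 0.025 over all genes, of which 49% lay below 0. Median-of-ratios and upper-quartile scaling left the same count of 8 below 0.

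**Figure D1:**
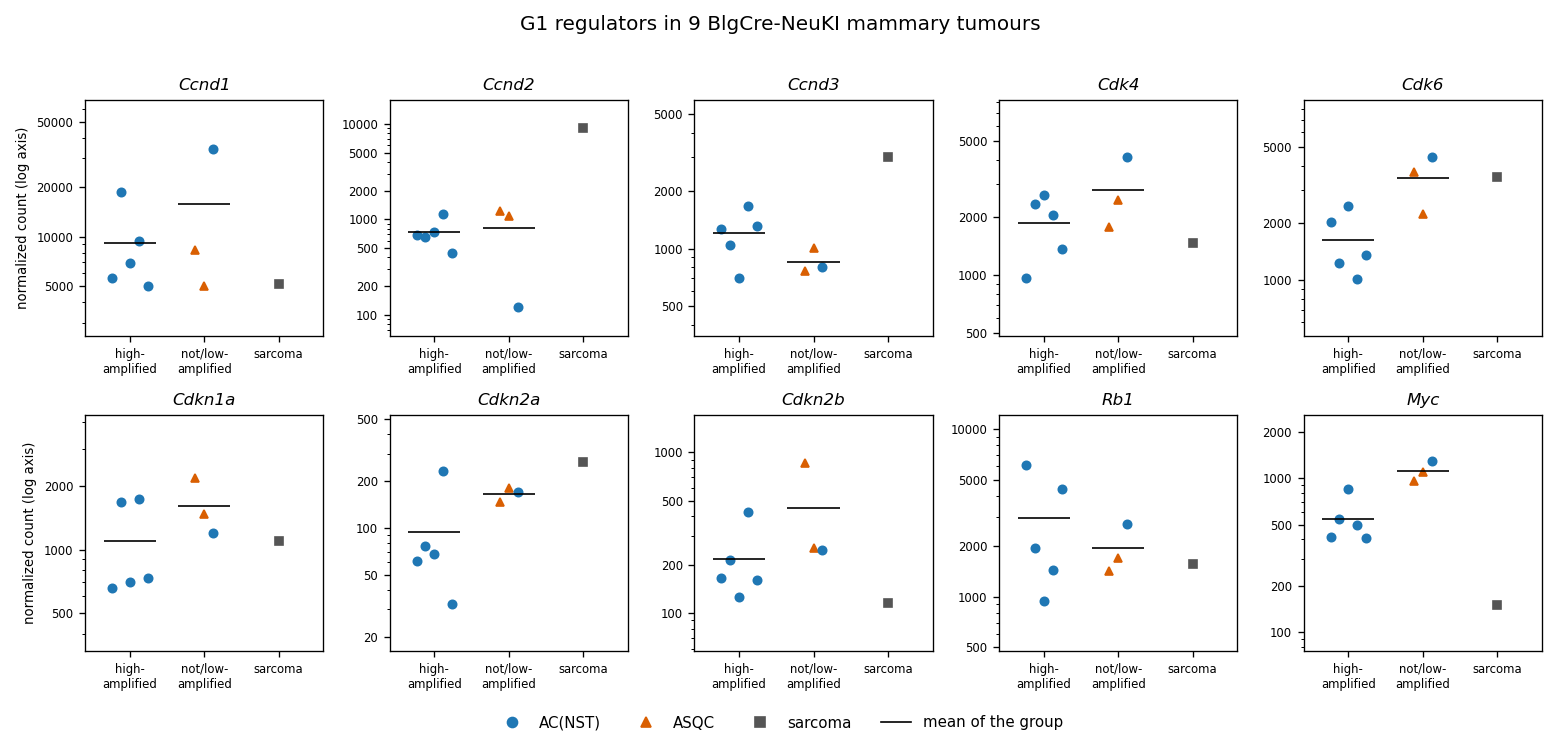
Normalized counts (log axis) of the 10 genes in each tumour, by amplification label and for the sarcoma, with circles for AC(NST), triangles for ASQC, a square for the sarcoma and a line at the mean of each group. Myc is the only gene whose 5 high-amplified tumours (409.6 to 855) all lie below the 3 not/low-amplified tumours (968 to 1299), and the sarcoma lies far above the others for Ccnd2 (9058) and below them for Myc (149).

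Ccnd1 (ENSMUSG00000070348, chr7:144929931-144939925, minus strand), the D cyclin of luminal mammary cells, was the most abundant of the 10 genes per kilobase of exon in all 8 epithelial tumours. The high-amplified tumours held 5589, 18725, 6908, 9466 and 5008 normalized counts. The not/low-amplified tumours held 8330.2, 4981 and 34169.8, and the sarcoma 5149. One tumour of each amplification group stood apart on the high side, MS1163.1 and MS1166.1, and the other 6 epithelial tumours and the sarcoma overlapped between 4981 and 9466. MS1166.1, an AC(NST) labelled not/low-amplified, was 1.82 times the next tumour and 4.95 times the median of the other 7. The means were 9139 ± 5626 (SD, n = 5) and 15827 ± 15973 (n = 3), and the difference was within that spread (log2 fold change -0.76, SE 0.65, adjusted p = 0.507, edgeR). Without MS1166.1 it turned to 0.46. By histotype it was lower in the ASQC by a log2 fold change of -0.98 (SE 0.80, adjusted p = 0.761). The 7 tested genes next to Ccnd1, which include Cttn, Fadd and Ano1 of the same stretch of chromosome 7, had log2 differences of -0.68 to 0.53 in MS1166.1 from the median of the other epithelial tumours, with 10 added to each normalized count.

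Ccnd2 (ENSMUSG00000000184, chr6:127125162-127152193, minus strand), a D cyclin of lymphoid and ovarian granulosa cells among others, was low in 1 epithelial tumour and very high in the sarcoma. High-amplified tumours held 683, 654, 737, 1148 and 447 normalized counts. The ASQC held 1233 and 1096, MS1166.1 held 120.1, and the sarcoma 9058. MS1166.1, the tumour with the most Ccnd1, thus had the least Ccnd2. The next lowest tumour held 3.72 times its level and the median of the other 7 held 6.13 times. The sarcoma was 7.35 times the highest epithelial tumour and 12.8 times their median. By amplification, the means of 734 ± 256 (n = 5) and 816 ± 607 (n = 3) did not differ beyond their spread (log2 fold change -0.15, SE 0.61, adjusted p = 0.898). The ASQC were higher than the AC(NST) by a log2 fold change of 0.88 (SE 0.60, adjusted p = 0.705), with MS1218.2 at 1148 between the 2 ASQC. Among the 6 AC(NST) alone the amplification difference was 2.58, which contrasts 5 tumours with MS1166.1 only. In MS1166.1 the 10 tested neighbours of Ccnd2, 5 on each side, had a median log2 difference of -0.77 from the median of the other epithelial tumours, where Ccnd2 had -2.52. In the sarcoma the median of the neighbours was 0.10, with 3 of 10 above 1, where Ccnd2 had 3.66.

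Ccnd3 (ENSMUSG00000034165, chr17:47505051-47599691, plus strand), the most widely expressed D cyclin, varied least of the 10 genes, 2.39-fold from the lowest to the highest epithelial tumour. Its normalized counts were 1269, 1049, 699.7, 1673 and 1304 in high-amplified tumours, 760.3, 1002.4 and 797 in not/low-amplified tumours, whereas the sarcoma held 2992. The 3 not/low-amplified tumours lay inside the range of the high-amplified ones, and the sarcoma was 1.79 times the highest of the 8. The difference by amplification was a log2 fold change of 0.51 (SE 0.31, adjusted p = 0.345), and by histotype -0.36 (adjusted p = 0.842). MS1218.2, the highest epithelial tumour for Ccnd3, was also the highest for most stromal markers given above, whose part in the value was not tested.

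The make-up of the D cyclin RNA set the sarcoma apart from the 8 epithelial tumours. Per kilobase of exon, Ccnd1 took 84.5%, 95.5%, 90.3%, 86.5% and 84.4% of the 3 D cyclins in high-amplified tumours, and 89.0%, 82.1% and 98.6% in not/low-amplified tumours. The mean of the 8 was 88.9% ± 5.73 (SD, n = 8). In the sarcoma Ccnd1 took 45.6%, Ccnd2 40.2% and Ccnd3 14.2%. The ratio of Ccnd1 to Ccnd2 per kilobase was 9.08 to 57.2 in 7 epithelial tumours, 568 in MS1166.1 and 1.14 in the sarcoma. The order of Ccnd1 and Ccnd2 in the sarcoma turned when levels were taken per kilobase of the longest transcript (38.4% and 39.9%), so that no order of them is given there. The sarcoma is a single tumour and gives no replicate check.

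**Figure D2:**
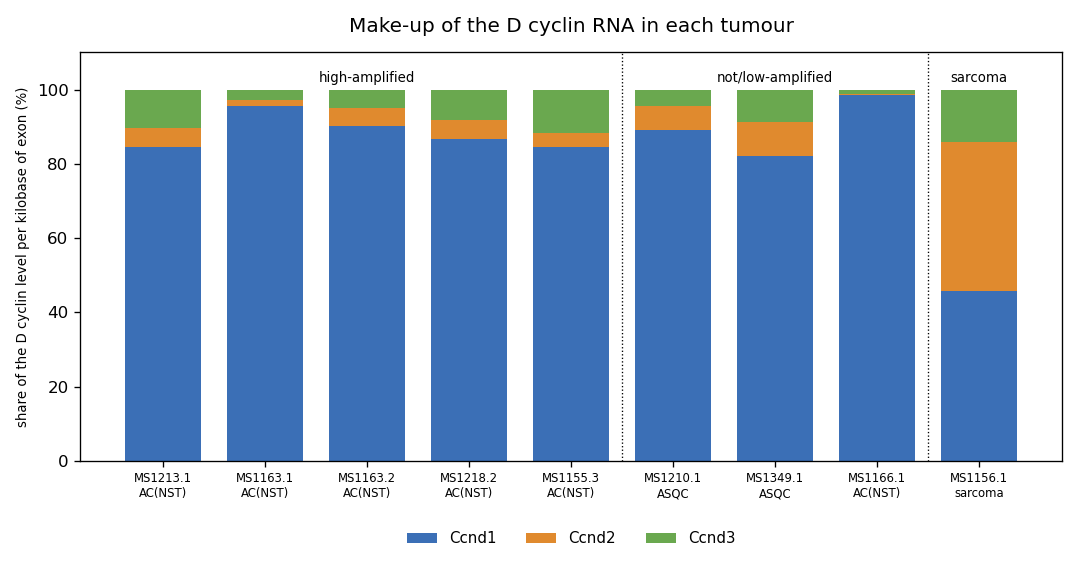
Stacked bars give the share (%) of Ccnd1, Ccnd2 and Ccnd3 in the summed D cyclin level per kilobase of exon, with 1 bar per tumour and the amplification group above it. Ccnd1 fills 82.1% to 98.6% of the bar in the 8 epithelial tumours and 45.6% in the sarcoma, where Ccnd2 fills 40.2%.

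Cdk4 (ENSMUSG00000006728, chr10:127063534-127067920, plus strand), a D cyclin kinase, was higher than Cdk6 per kilobase of exon in all 9 tumours. It stood at 2.05 to 8.65 times Cdk6 in the 8 epithelial tumours and at 1.81 times in the sarcoma. Its normalized counts were 963, 2349, 2626, 2047 and 1376 in high-amplified tumours, 1773, 2468 and 4119 in not/low-amplified tumours, whereas the sarcoma held 1476. Low and high values occurred in both groups, with MS1166.1 highest at 1.57 times the next tumour. Neither comparison passed, with a log2 fold change of -0.55 by amplification (SE 0.38, adjusted p = 0.402) and of -0.067 by histotype (adjusted p = 0.984). The 4 E-boxes in the Cdk4 window printed above are a feature of the sequence, whereas Cdk6 had 1.

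Cdk6 (ENSMUSG00000040274, chr5:3341485-3531008, plus strand), the second D cyclin kinase, had the largest fold change of the 10 by amplification. It stood at 2021, 1233, 2473, 1018 and 1364 normalized counts in high-amplified tumours, at 3704, 2228 and 4471 in not/low-amplified tumours, with 3511 in the sarcoma. The groups overlapped only through MS1163.2 at 2473 and the ASQC MS1349.1 at 2228. The means were 1622 ± 605 (n = 5) and 3468 ± 1140.0 (n = 3), a log2 fold change of -1.08 (SE 0.35, adjusted p = 0.122 with edgeR and 0.0502 with DESeq2). It stayed between -1.31 and -0.87 when each tumour was left out in turn, with adjusted p between 0.0897 and 0.315. By histotype the log2 fold change was 0.51 (adjusted p = 0.828).

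Cdkn1a (ENSMUSG00000023067, chr17:29090976-29100727, plus strand), which encodes p21, held 661, 1674, 699.7, 1727 and 737 normalized counts in high-amplified tumours, 2173, 1472 and 1195 in not/low-amplified tumours, whereas the sarcoma held 1092. The high-amplified tumours fell into 3 low and 2 high values, and the high ones, MS1163.1 and MS1218.2, lay within the range of the not/low-amplified tumours. The log2 fold change was -0.54 by amplification (SE 0.41, adjusted p = 0.453) and 0.71 by histotype (SE 0.44, adjusted p = 0.672). Both tumours of mouse MS1163 are virgin AC(NST), and they differed by more than the means of the groups did.

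Cdkn2a (ENSMUSG00000044303, chr4:89274471-89294653, minus strand), the INK4a/ARF gene, was lower in all high-amplified tumours but MS1218.2 than in the not/low-amplified tumours. High-amplified tumours held 61.6, 76.6, 68.4, 231 and 32.2 normalized counts, and not/low-amplified tumours held 146, 182 and 171. The sarcoma held 268, which was 1.16 times the highest epithelial tumour. MS1218.2 lay above all 3 not/low-amplified tumours and MS1155.3 was lowest. The log2 fold change was -0.80 (SE 0.58, adjusted p = 0.433). Without MS1218.2 it was -1.46 with an adjusted p of 0.0469, the only setting among those tried in which Cdkn2a was called (adjusted p 0.0469 to 0.596 with each tumour left out), and leaving out that tumour raised the genes called over the whole table from 61 higher and 68 lower to 739 and 509. The raised fibroblast, leukocyte and endothelial markers of MS1218.2 and its discordant amplification assays stand beside this value. Their part in it was not tested. By histotype the log2 fold change was 0.63 (adjusted p = 0.845). A single row holds the reads of both starts shown above, so that p16Ink4a and p19Arf transcripts were not measured apart.

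Cdkn2b (ENSMUSG00000073802, chr4:89306299-89311039, minus strand), which encodes p15 and lies 11645 bases from Cdkn2a, held 166, 213, 126, 422 and 159.7 normalized counts in high-amplified tumours, 855, 254 and 247 in not/low-amplified tumours, whereas the sarcoma held 116. The ASQC MS1210.1 was 2.02 times the next tumour, which was MS1218.2, and the sarcoma lay just below the lowest epithelial tumour, which held 1.08 times its level. It was the only gene of the 10 with an unadjusted p under 0.05 by histotype, a log2 fold change of 1.32 (SE 0.53) whose adjusted p was 0.514. By amplification the log2 fold change was -1.04 (SE 0.53, adjusted p = 0.273). Without MS1210.1 the log2 fold change was -0.19 by amplification and 0.15 by histotype. MS1210.1 also carried the highest squamous marker sum, 81832, whose part in the value was not tested. In the sarcoma Cdkn2a was at its highest and Cdkn2b at its lowest of the 9 tumours.

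Rb1 (ENSMUSG00000022105, chr14:73183673-73325822, minus strand), the target of the D cyclin kinases, held 6099, 1966, 946, 1443 and 4403 normalized counts in high-amplified tumours, 1428, 1712 and 2704 in not/low-amplified tumours, whereas the sarcoma held 1576. MS1213.1 and MS1155.3 were the highest, and the other 7 tumours lay between 946 and 2704. These 2 tumours also held the most Erbb2, 51764 and 105019. In them the 10 tested neighbours of Rb1 had median log2 differences of -0.022 and -0.038 from the median of the other epithelial tumours, where Rb1 had 1.83 and 1.36. The group means of 2971 ± 2195 (n = 5) and 1948 ± 669.7 (n = 3) did not differ beyond their spread (log2 fold change 0.64, SE 0.59, adjusted p = 0.545), nor did the histotypes (-0.90, adjusted p = 0.734). Rcbtb2 and Lpar6 overlap Rb1 on the other strand, as Oraov1 overlaps Ccnd1, Bysl overlaps Ccnd3 and Tspan31 overlaps Cdk4, and whether reads were counted by strand was not given in the sources used here.

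Myc (ENSMUSG00000022346, chr15:61985391-61990374, plus strand) was lower in every high-amplified tumour than in any not/low-amplified tumour. The high-amplified tumours held 416, 541, 855, 496 and 409.6 normalized counts. The not/low-amplified tumours held 968, 1100.3 and 1299, and the sarcoma 149. The gap was narrow, since the lowest not/low-amplified tumour, MS1210.1, was 1.13 times the highest high-amplified tumour, MS1163.2. The means were 544 ± 183 (SD, n = 5) and 1122 ± 167 (n = 3), a log2 fold change of -1.03 (SE 0.29). The adjusted p was 0.0912 with edgeR and 0.0224 with DESeq2, so that the call depended on the tool. With each tumour left out in turn the log2 fold change stayed between -1.24 and -0.93 with adjusted p between 0.0600 and 0.227, and the other settings gave -1.29 to -0.68 with adjusted p up to 0.640. Both histotypes of the not/low-amplified group lay above the high-amplified tumours, and the histotype comparison gave a log2 fold change of 0.64 (adjusted p = 0.713), which was -0.30 within the not/low-amplified tumours alone. The 8 epithelial markers moved with the same label. Their summed level was 38306 to 60785 in high-amplified and 104983 to 156618 in not/low-amplified tumours, and all 8 fold changes lay below 0 (49% of all genes). None of the 8 was called by edgeR and 4 were called lower by DESeq2, against 4.32% of all genes. The 10 fibroblast and mesenchymal markers went the other way, with all 10 fold changes above 0. Their median was 0.93 against 0.025 over all genes, and 0 of 10 were called by edgeR or DESeq2. The part of these 2 sets of markers in the Myc value was not tested. In the sarcoma, where the epithelial marker sum was 484, the median of the epithelial tumours was 4.68 times the Myc level and the lowest of them 2.74 times.

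**Figure D3:**
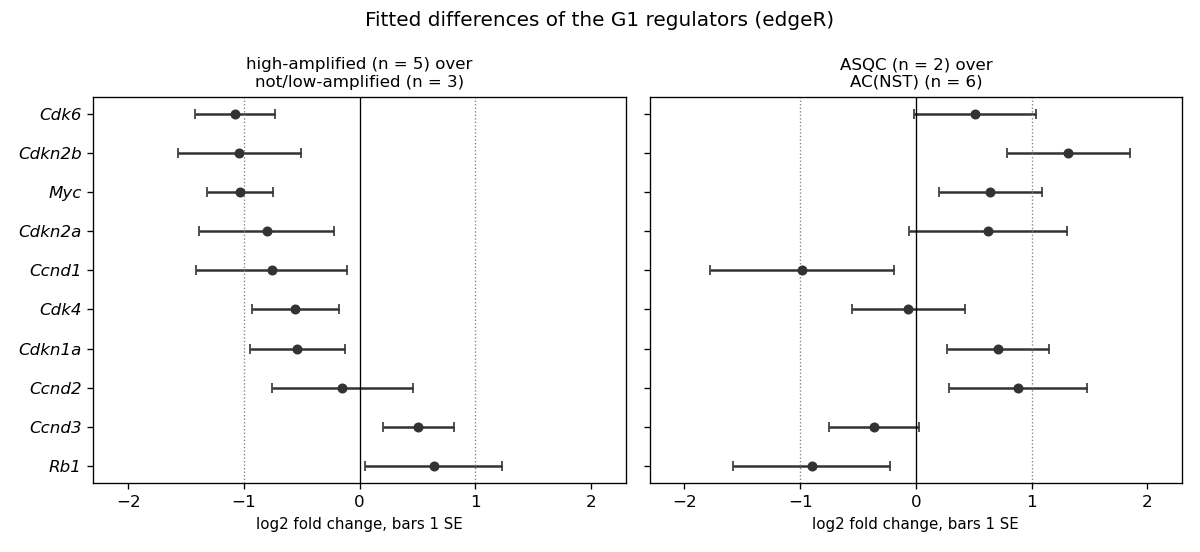
Points give the log2 fold change from edgeR for the 10 genes, high-amplified over not/low-amplified on the left and ASQC over AC(NST) on the right, with bars of 1 SE and dotted lines at 2-fold. Cdk6, Cdkn2b and Myc lie just beyond 2-fold on the left (-1.08, -1.04 and -1.03), and Cdkn2b alone lies beyond it on the right (1.32).

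By histotype, none of the 10 genes was called by edgeR or DESeq2, where 0.236% of genes were called by edgeR and 2.66% by DESeq2. At an unadjusted p under 0.05, 1 of the 10 passed (Cdkn2b), against 8.72% of all genes. The groups overlapped for all 10, whereas 10.3% of all genes did not overlap. Of the 10 fold changes 6 lay above 0 with a median of 0.57, against -0.077 over all genes. The 2 ASQC are the smaller group, and both are not/low-amplified. Of the squamous and keratinocyte markers 7 were tested, of which 6 did not overlap and were higher in the ASQC (5.30% of all genes did so) and 1, the desmosomal cadherin Dsg3, was called (log2 fold change 3.78, adjusted p = 0.0211).

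Genes that respond to Myc lay on the same side as Myc by amplification. The list was chosen with earlier results of these data known, so the shares over all genes are given as a description. Of 20 such genes, of ribosome synthesis, translation and metabolism, 20 had log2 fold changes below 0 and 3 were called lower in the high-amplified tumours (0.485% of all genes were called in that direction). The median was -0.71 against 0.025 over all genes. At an unadjusted p under 0.05, 10 of 20 were lower, against 11.0% of all genes. In 11 of 20 every high-amplified tumour lay below every not/low-amplified tumour, against 8.04%. All 20 stayed below 0 under median-of-ratios and upper-quartile scaling, and 18 to 20 did so under the other settings. DESeq2 called 7 of 20, against 4.32% of all genes called lower. By histotype 19 of the 20 lay above 0, that is, higher in the ASQC, whereas 55.1% of all genes lay below 0. The median there was 0.48 against -0.077 over all genes. Of the 20, 1 did not overlap by histotype, against 5.30% of all genes higher in the ASQC, and 0 were called by either tool.

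The 3 called by edgeR by amplification were Rrs1, a ribosome assembly factor, Hspd1, the mitochondrial chaperonin, and Pa2g4, a growth regulator that binds ErbB3. Rrs1 held 245, 214, 209, 310.1 and 227 normalized counts in high-amplified tumours, against 681, 667 and 677 in not/low-amplified tumours (log2 fold change -1.47, SE 0.24, adjusted p = 0.0305). Hspd1, whose promoter is shown above, held 1706, 2243, 2633, 1443 and 2163 against 5239.8, 5416 and 5983 (-1.43, SE 0.25, adjusted p = 0.0377). Pa2g4 held 1151, 1359, 1315, 1297 and 1333 against 2744, 2487 and 4112 (-1.25, SE 0.23, adjusted p = 0.0396). The groups were far apart for all 3, and the sarcoma, at 208, 1207 and 935, lay below every epithelial tumour for each. The 3 were called without MS1218.2, and were not called when any other of the 8 tumours was left out (adjusted p up to 0.120). Nor were they called with the tumours of mouse MS1163 summed, with parity as a covariate, among AC(NST) or parous tumours alone or with the sarcoma included (adjusted p up to 0.399). The epithelial markers given beside Myc moved with these genes too and the fibroblast markers the other way, and their part was not tested.

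**Figure D4:**
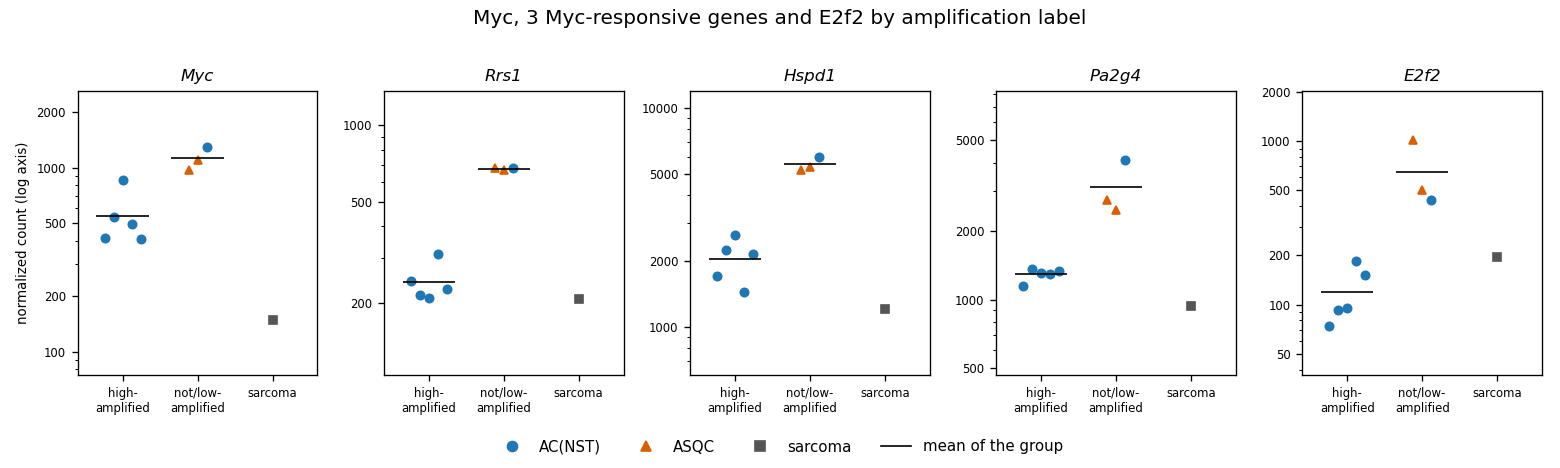
Normalized counts (log axis) of Myc, the 3 called Myc-responsive genes and E2f2 in each tumour, by amplification label and for the sarcoma, with symbols by histotype and a line at each group mean. For all 5 genes the high-amplified tumours lie below the not/low-amplified ones, narrowly for Myc (855 against 968) and widely for Rrs1 (209 to 310.1 against 667 to 681).

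Among the other Myc and Max family genes 0 of 12 were called by edgeR, with 7 below 0. At an unadjusted p under 0.05, 2 were lower and 1 was higher, and these 3 of 12 stand against 22.8% of all genes. Mycl, a Myc paralogue, differed most. It held 10.6, 4.20, 6.21, 37.0 and 27.1 normalized counts in high-amplified and 74.6, 311 and 583 in not/low-amplified tumours, with no overlap and low counts in the former (log2 fold change -4.20, SE 0.82, adjusted p = 0.0510), and DESeq2 called it alone of the 12, where it called 10.6% of all genes. On the other side was Mlxipl, a glucose-responsive factor (0.87, adjusted p = 0.436).

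Downstream of Rb1, 1 of 12 pocket protein and E2F genes was called, E2f2, an activating E2F factor, where 0.921% of all genes were called. High-amplified tumours held 74.2, 92.3, 95.7, 185 and 152 normalized counts. The not/low-amplified tumours held 1009, 504 and 433, and the sarcoma 195. The lowest not/low-amplified tumour lay above every high-amplified tumour (log2 fold change -2.42, SE 0.41, adjusted p = 0.0337), and the ASQC MS1210.1 was highest. E2f2 stayed called without MS1218.2 or MS1166.1 and not when any other tumour was left out (adjusted p up to 0.130). It was not called either with the tumours of mouse MS1163 summed, with parity as a covariate, among AC(NST) or parous tumours alone or with the sarcoma included (adjusted p up to 0.354). The other 11 were not called, and over the 12 genes 8 lay below 0 with a median of -0.28. By histotype both ASQC also lay above every AC(NST) for E2f2, where MS1166.1 at 433 was the highest AC(NST). This held for 1 of the 12 genes, against 5.30% of all genes, and 0 of 12 were called by histotype. The part of the epithelial and fibroblast markers in the E2f2 value was not tested.

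Of the E2F targets and proliferation genes, 0 of 20 were called by edgeR, with 19 below 0 (49% of all genes) and a median of -0.87 against 0.025. At an unadjusted p under 0.05, 7 of 20 were lower, against 11.0% of all genes. DESeq2 called 2 lower, Mcm6 and Birc5, against 4.32%. The most different was Mcm6, a helicase subunit of replication origins, at 558, 1402, 1402, 765 and 678 normalized counts in high-amplified and 1481, 1978 and 5298 in not/low-amplified tumours (-1.58, SE 0.46, adjusted p = 0.100). MS1166.1 held the highest value, and it was highest of the 8 epithelial tumours for 16 of the 20 genes (22.3% of all genes). The summed level of the 20 genes was 47725 in MS1166.1 and 26329 and 25252 in the ASQC. Both ASQC sums lay within the range of the high-amplified tumours, 11725 to 35118. Mki67, a protein of cycling cells, was the only one above 0 (0.12, SE 0.42, adjusted p = 0.883), and it lay below 0 under 6 settings.

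For the other cyclins, kinases and phosphatases of G1 and S phase, 0 of 10 were called by edgeR and 8 lay below 0, against 49% of all genes. DESeq2 called 1 of the 10, the phosphatase Cdc25b (-1.15, adjusted p = 0.0274, against 0.105 with edgeR), where it called 10.6% of all genes. Ccne2, an E cyclin of the G1 to S step, had a log2 fold change of -1.37 (adjusted p = 0.206) and Cdk7, the CDK-activating kinase, of 0.60 (adjusted p = 0.243). The other CDK inhibitors gave 0 of 4 called by either tool and 4 below 0, with Cdkn1c, which encodes p57, at -1.32 (adjusted p = 0.357) and at 0.034 without MS1349.1. Of 20 genes of the p53 pathway 0 were called by edgeR and 15 lay below 0, against 49% of all genes. Among them Perp, a desmosomal p53 target, was at 1065 to 2687 in high-amplified tumours and at 9718, 4158 and 81323 in not/low-amplified tumours (-3.93, SE 0.82, adjusted p = 0.0569). Mdm4, which restrains p53, was at 8009.6, 4752, 5974, 796 and 5767 against 1726, 1493 and 1618 (1.67, SE 0.60, adjusted p = 0.146), and the exception was again MS1218.2, without which the adjusted p was 0.0132. DESeq2 called 3 of the 20, Perp and Pmaip1 lower and Mdm4 higher, against 10.6% of all genes called.

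Among the epithelial tumours MS1166.1 was highest for 4 of the 10 genes, Ccnd1, Cdk4, Cdk6 and Myc, where 22.3% of all genes were highest in this tumour. It was lowest for 1 of the 10, Ccnd2, where 20.8% of all genes were lowest in it. MS1210.1 was highest for Ccnd2, Cdkn1a and Cdkn2b (8.71% of all genes) and MS1218.2 for Ccnd3 and Cdkn2a (20.0%). MS1163.1 was neither highest nor lowest for any of them. MS1166.1 also had the highest level of 6 of 8 epithelial markers and a summed fibroblast level of 34593, the lowest of the 9, and their part in its values was not tested.

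The sarcoma lay outside the range of the 8 epithelial tumours for 5 of the 10 genes, where 42.5% of all genes did so. It was above all 8 for Ccnd2, Ccnd3 and Cdkn2a (21.7% of all genes) and below all 8 for Myc and Cdkn2b (20.8%). With CPM (reads scaled to equal library totals) in place of size factors, an alternative chosen after the data were seen, 3 genes were again above and 2 below. For Ccnd1, Cdk4, Cdk6, Cdkn1a and Rb1 the sarcoma lay within the epithelial range. Per kilobase of exon its 2 most abundant genes of the 10 were Ccnd1 and Ccnd2, in an order that turns with the length used, and its least abundant was Myc, whereas Cdkn2a was least abundant in 4 of the 8 epithelial tumours. Of the Myc-responsive genes 13 of 20 lay below all 8 epithelial tumours, where 20.8% of all genes did. The mesenchymal and muscle markers given above set this tumour apart, and their part in these values was not tested.

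The genes whose log2 values followed a member most closely over the 8 epithelial tumours are given as a description, with no test, for 5 of the 10. They were 1500011B03Rik, Sod1 and Wdr34 for Ccnd1 (Pearson's r 0.962, 0.952 and 0.945, in that order), and Gas7, Dolpp1 and Fam49a for Ccnd2 (0.977, 0.975 and 0.974). For Cdkn2a they were Gdf15, Srsf9 and Cuta (0.984, 0.977 and 0.975), and for Cdkn2b Lpin3, Clec11a and S100a16 (0.947, 0.943 and 0.935). For Myc they were Rsl24d1, Gdi2 and Nup93 (0.988, 0.985 and 0.984). None of them lies on the chromosome of the gene that it followed. They were picked as the highest of 14006 genes over 8 tumours that share depth and make-up of cells. Gdf15 held only 4.82, 8.39, 3.73 and 0 normalized counts in MS1213.1, MS1163.1, MS1163.2 and MS1155.3, so its r rests in part on values near 0.

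The 10 tested neighbours of Myc on chromosome 15 had median log2 differences of -0.14, -0.13 and -0.17 in the 3 not/low-amplified tumours from the median of the other epithelial tumours, where Myc had 0.83, 1.01 and 1.25. In the sarcoma they had a median of -0.70, with 5 of 10 below -1, where Myc had -2.12. Around Cdkn2a, whose 10 neighbours include Mtap and Cdkn2b, the medians were 0.52, 0.41 and 0.74 in the not/low-amplified tumours and -0.45 to 0.034 in the high-amplified ones. Cdkn2a lay on the same side as its neighbours, except in MS1218.2 (1.48 with a neighbour median of -0.33), MS1155.3 (-1.89 with 0.034) and the sarcoma (1.26 with -0.55).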

How the data were processed

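RNA from 9 mammary tumours was extracted with Trizol or RNeasy, depleted of ribosomal RNA and sequenced as strand-specific paired-end libraries. The authors aligned reads to mouse build 38 with STAR, kept uniquely mapped reads and counted them per gene with HTSeq-count. Whether counting used strand was not given in the sources used here. The deposited files hold raw counts for each tumour. For the 8 epithelial tumours the deposited files also hold a normalized signal, which equals the counts divided by 1 size factor per tumour, and the sarcoma was scaled here to the same reference. Depth was 12501225 to 23912429 counted reads per tumour, and these totals limit precision to counting error only beside the spread between tumours.

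Groups came from the labels. The 14007 genes that reached 10 counts in 3 or more epithelial tumours were tested on raw counts with edgeR 4.0.16 (quasi-likelihood test, TMM) in R 4.3.3, with Benjamini-Hochberg adjustment over all of them, and called at an adjusted p under 0.05 and more than 2-fold. The standard error (SE) of the log2 fold change was derived from the test. It is the size of the fold change divided by the square root of the quasi-likelihood F statistic. The sarcoma, a single tumour, was not tested. Levels between genes were compared per kilobase of exon (GENCODE M21, GRCm38). Alternatives were DESeq2 1.42.0, limma 3.58.1 on log2(value + 1), other scalings and filters, leaving out each tumour, the MS1163 tumours summed, a parity covariate and subsets of tumours. Scaling of the sarcoma by CPM was chosen after the data were seen. Of these fits only the edgeR test with TMM was tried on simulated data, and the alternatives were not.

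The members and gene lists were chosen with earlier results of these data known. The genes named are the 10 members, from each pathway list the called genes or, with none, the largest fold change in each direction, and the 3 genes most alike for 5 members. Genes named with a count of DESeq2 calls, and neighbours, fall outside this rule.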

Additional observations from a re-analysis of the deposited data

How the results depend on the processing

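Of 350 values of the 10 genes under the alternatives, 336 kept their direction and 2 became called, Myc with DESeq2 and Cdkn2a without MS1218.2, so that 1 of 10 was called by amplification with DESeq2 and 0 to 1 when each tumour was left out. Genes called higher in high-amplified tumours numbered 61, against 884 with DESeq2, 118 with limma, 92 with a mean count of at least 50, 18 with the MS1163 tumours summed, 12 among AC(NST) alone, 4 with the sarcoma included, 0 with a parity covariate, 0 among parous tumours and 0 to 739 with each tumour left out. Genes called lower numbered 68, against 605 with DESeq2, 139 with no filter, 13 with MS1163 summed, 0 with parity, 0 among parous tumours, 0 with the sarcoma and 0 to 509 with each tumour left out. By histotype 31 were higher in the ASQC, against 174 with DESeq2, 12 with limma, 167 with no filter, 85 with a mean count of at least 50, 17 with MS1163 summed, 0 among not/low-amplified tumours and 8 to 78 with each tumour left out, and 2 were lower, against 199, 4 with no filter, 1 with MS1163 summed, 0 among not/low-amplified tumours and 0 to 19. By amplification, the log2 fold change turned for Ccnd1 without MS1166.1 (-1.20 to 0.46 with each tumour left out), for Ccnd2 with limma (0.36), in AC(NST) alone (2.58), in parous tumours (0.0061), without MS1210.1 and without MS1349.1 (-0.66 to 0.30 with each left out), and for Ccnd3 with the sarcoma (-0.19). By histotype it turned for Cdk4 with limma (0.047), without MS1210.1 and without MS1166.1 (-0.33 to 0.18 with each left out), and among not/low-amplified tumours for Ccnd3 (0.18), Cdk6 (-0.56), Cdkn2a (-0.030) and Myc (-0.30). Cdkn1c turned without MS1349.1 (-1.80 to 0.034 with each left out), and Mki67 with limma (-0.054), MS1163 summed (-0.091), without MS1163.1 and without MS1163.2 (-0.12 to 0.31 with each left out), with parity (-0.46) and in parous tumours (-0.44). Subsets hold fewer tumours, and otherwise the cause was not tested. Per kilobase of the longest transcript, Ccnd1 took 38.4% of the D cyclins in the sarcoma. No paired analysis was possible because no mouse number was shared between the groups compared. The lowest count of a member was 25, so depth limits Cdkn2a most.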
